A study of Mus musculus with 4 samples.

Results

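The genes followed here are 10 components of the Notch pathway: the receptors Notch1 and Notch2, the ligands Dll1, Dll3 and Jag1, the fringe glycosyltransferase Mfng, and the transcription factors Hes1, Hes5, Hes6 and Hey1. They were taken by symbol from the 32285 genes of the deposited matrices, and all 10 were found. In Notch signalling, a ligand on one cell binds a receptor on its neighbour, the receptor is cleaved, and its intracellular domain enters the nucleus and joins Rbpj to switch on Hes and Hey repressors. In the developing neocortex these repressors hold back proneural factors and keep radial glia as progenitors, while differentiating neighbours display Delta ligands. Fringe enzymes add sugars to the receptor and change how it responds to each ligand.

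Single cells of the rostral neocortex of mouse embryos were profiled at E15.5 with droplet 3′ libraries, 2 from i4F-Nes and 2 from littermate control (CTR) samples. The i4F-Nes genotype was Nestin-Cre;i4F;ROSA-STOP-rtTA: Nestin-Cre, active in neural progenitors, removes a stop in front of the rtTA transactivator, and rtTA with doxycycline switches on the i4F cassette of the Yamanaka factors Pou5f1 (Oct4), Sox2, Klf4 and Myc. CTR carried i4F and ROSA-STOP-rtTA without the Cre. Doxycycline was given to the pregnant females in drinking water at 0.2 mg/ml between E10.5 and E14.5 (4 days), so both groups were exposed to the drug and dosing ended 1 day before collection. How many embryos went into a library is not given in the sources used here, so the spread between libraries may be partly technical.

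The 4 libraries held 35255 barcodes and 458145772 UMIs (unique molecular identifiers, each marking 1 captured transcript). Filtering left 27017 cells, 6123 to 7597 per library, with medians of 11405 to 15188 UMIs, and replicate 1 of each group was deeper than replicate 2. Pairs of libraries shared 11 to 21 barcode sequences. Over all kept cells, Pou5f1 had a level of 30.2 and 10.7 CPM (UMIs of the gene per 1000000 UMIs of the same cells) in the i4F-Nes libraries and 1.88 and 1.29 CPM in CTR. The other 3 factors overlapped between the groups: Sox2 was at 86.5 and 76.2 CPM in i4F-Nes and 92.7 and 51.9 CPM in CTR, Klf4 at 3.55 and 3.40 against 5.34 and 2.76 CPM, and Myc at 13.03 and 10.2 against 17.7 and 10.1 CPM. The label names the cells as cortical neurons, and the libraries also held progenitors, microglia and vascular cells.

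Cells were assigned to classes by UMIs of marker genes, none of them a Notch gene studied here. The radial glia-like gate needed at least 4 of 7 markers and no Eomes UMI. Sox2, a factor of the i4F cassette, was among the markers. This gate took 957 and 578 cells of the i4F-Nes libraries and 611 and 383 of the CTR libraries. The intermediate progenitor-like gate, built on Eomes, took 1146 and 577, and 1202 and 833, in the same order. Cells with Neurod1 and Dcx that met no earlier gate are called Neurod1-gated cells, since that gate rests on too few markers for a cell type name. A further 2 gates caught cells found in i4F-Nes libraries only: Cytl1-gated cells (209 and 188) and Krt8 Crabp2 Ebf-gated cells (232 and 159), with 0 of 6123 and 0 of 6750 cells in CTR for both, which allows shares of up to 0.049% and 0.0444%. These 2 groups carry no cell type name. Cells at the edge of the radial glia-like gate made up 6.55% to 16.8% of it. Among the 10 genes with the largest fold over other cells, the radial glia-like class had 2 of its markers, the intermediate progenitor-like class 5, the upper-layer-like class 1 and the deep-layer-like class 0, although all 6 deep-layer markers were detected. Hes5 and Mfng are themselves among those leading genes of the radial glia-like and intermediate progenitor-like classes.

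Many cells of the radial glia-like gate in i4F-Nes also carried genes of those 2 gates. Cells with at least 3 of the 14 genes used for those 2 gates (called induced genes here) made up 25.0% and 35.1% of the gate in i4F-Nes and 3.11% and 1.57% in CTR. Nanog, a pluripotency factor, reached 56.1 and 26.4 CPM in this gate of the i4F-Nes libraries and 0.263 and 0.373 CPM in CTR. Without the cells carrying induced genes Nanog was 0.743 and 0.573 CPM in i4F-Nes. The same cells made up 11.2% and 14.9% of the intermediate progenitor-like gate in i4F-Nes and 2.50% and 0.960% in CTR. Summed levels of the other marker lists in the radial glia-like gate were 1.86 to 3.47 CPM for microglia and 4.60 to 7.09 CPM for endothelial cells, with overlap between the groups. Interneuron markers were at 21.2 and 18.4 CPM in i4F-Nes and 6.74 and 8.39 CPM in CTR, and at 5.66 and 3.63 against 7.07 and 8.57 CPM without the cells carrying induced genes. Mural markers were at 14.9 and 15.0 CPM in i4F-Nes and 4.91 and 10.4 CPM in CTR, and at 12.8 and 18.5 against 4.78 and 10.47 CPM without those cells. Ndufa4l2, on the mural list, was also among the leading genes of Krt8 Crabp2 Ebf-gated cells. Meningeal fibroblast markers were at 3.67 and 5.92 CPM in i4F-Nes and 2.80 and 3.54 CPM in CTR. The part of these cell types in the group differences was not tested. Comparisons between groups are given with and without the cells carrying induced genes, a choice added after seeing the data.

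RefSeq promoters on build GRCm38.p6 were matched by symbol for 7 of the 10 genes. The 250 bases before the start are shown for the 3 genes whose promoter window lies outside the GENCODE gene body and whose levels separate the progenitor classes below: Hes5, highest in radial glia-like cells, and Hes6 and Dll1, higher in intermediate progenitor-like cells. Capitals mark TGGGAA, the core of the Rbpj binding motif, on either strand (TTCCCA when read on the strand shown).
Hes5 (chr4:154960673-154960922, plus strand): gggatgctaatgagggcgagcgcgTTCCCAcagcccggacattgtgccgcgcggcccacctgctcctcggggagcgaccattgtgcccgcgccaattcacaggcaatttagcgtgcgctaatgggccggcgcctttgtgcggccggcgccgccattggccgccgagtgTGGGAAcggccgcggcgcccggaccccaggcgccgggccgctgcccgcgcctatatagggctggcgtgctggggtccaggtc
Hes6 (chr1:91414039-91414288, minus strand): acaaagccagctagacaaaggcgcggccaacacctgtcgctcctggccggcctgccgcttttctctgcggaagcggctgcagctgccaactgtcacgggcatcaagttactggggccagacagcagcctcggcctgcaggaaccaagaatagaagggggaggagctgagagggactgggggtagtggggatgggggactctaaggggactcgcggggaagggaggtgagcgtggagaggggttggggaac
Dll1 (chr17:15376933-15377182, minus strand): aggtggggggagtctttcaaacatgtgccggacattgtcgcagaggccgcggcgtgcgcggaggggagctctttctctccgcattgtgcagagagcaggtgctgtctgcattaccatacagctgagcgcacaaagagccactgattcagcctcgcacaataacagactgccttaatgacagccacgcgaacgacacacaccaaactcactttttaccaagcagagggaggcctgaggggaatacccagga
The Hes5 window held 2 matches, beginning 226 and 82 bases before the start, and the Hes6 and Dll1 windows held 0. TGGGAA was present on either strand in 21.6% of all 32851 RefSeq promoter windows of this length. The E-box CANNTG, the motif bound by proneural and other bHLH factors, had 1 match in the Hes5 window, 3 in the Hes6 window and 3 in the Dll1 window, none overlapping a TGGGAA match, and was present in 66.2% of all windows. The N-box CACNAG, bound by Hes repressors, had no match in these 3 windows and was present in 36.7% of all windows.

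Among the progenitor-like and neuronal gates, both receptors were highest in radial glia-like cells. Notch1 (ENSMUSG00000026923, chr2:26457903-26516663, minus strand, GRCm38) stood in radial glia-like cells at 187 and 173 CPM in i4F-Nes and 163 and 173 CPM in CTR. In intermediate progenitor-like cells it was 76.4 and 69.0 CPM in i4F-Nes and 62.0 and 60.2 CPM in CTR. The 4 radial glia-like values all lay above the 4 intermediate progenitor-like ones, and Neurod1-gated cells were at 1.82 to 3.10 CPM. Mural-like cells had the highest mean among classes with at least 2 libraries, 240 ± 67.9 CPM (SD, n = 3 libraries). Its libraries lay above the radial glia-like ones, which overlapped the Cytl1-gated cells next in order. The 1 library with enough endothelial-like cells was at 139 CPM. Notch2 (ENSMUSG00000027878, chr3:98013527-98150361, plus strand) was highest in radial glia-like cells, at 156 and 138 CPM in i4F-Nes and 243 and 203 CPM in CTR. It fell to 18.5 to 25.5 CPM in intermediate progenitor-like cells and to 3.25 to 7.11 CPM in Neurod1-gated cells.

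The ligands divided by class. Dll1 (ENSMUSG00000014773, chr17:15367354-15376872, minus strand), an activating Delta ligand, stood in intermediate progenitor-like cells at 34.7 and 29.9 CPM in i4F-Nes and 44.7 and 30.6 CPM in CTR. Radial glia-like cells were at 6.82 to 9.13 CPM and Neurod1-gated cells at 7.16 to 10.4 CPM, and these 2 classes overlapped. Dll3 (ENSMUSG00000003436, chr7:28293553-28302238, minus strand), a Delta family member known to act inside the cell against Notch activation, was at 47.0 and 55.2 CPM in i4F-Nes and 36.1 and 21.2 CPM in CTR intermediate progenitor-like cells. In radial glia-like cells Dll3 was at 1.40 to 3.47 CPM, its lowest mean among classes with at least 2 libraries; the 1 library with enough endothelial-like cells was at 1.56 CPM. Jag1 (ENSMUSG00000027276, chr2:137081456-137116644, minus strand), a Serrate-type ligand, was highest among classes with at least 2 libraries in mural-like cells (93.2 ± 20.1 CPM, SD, n = 3 libraries), and the 1 library with enough endothelial-like cells was at 103 CPM. It was at 10.9 to 19.3 CPM in radial glia-like and 1.63 to 10.0 CPM in intermediate progenitor-like cells.

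Mfng (ENSMUSG00000018169, chr15:78755882-78773475, minus strand) was high in intermediate progenitor-like cells, at 215 and 176 CPM in i4F-Nes and 233 and 170 CPM in CTR. Krt8 Crabp2 Ebf-gated cells, at 249 and 181 CPM, overlapped them and had the highest mean among classes with at least 2 libraries. The 1 library with enough endothelial-like cells was at 102 CPM. Radial glia-like cells were at 5.87 to 13.99 CPM and Neurod1-gated cells at 36.9 to 68.2 CPM. These 2 ranges and that of intermediate progenitor-like cells did not overlap. Its paralogue Lfng had the opposite order: 46.6 and 33.1 CPM in i4F-Nes and 60.1 and 34.7 CPM in CTR radial glia-like cells, and 0.384 to 2.81 CPM in intermediate progenitor-like cells.

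Of the effectors, Hes1 (ENSMUSG00000022528, chr16:30064384-30067796, plus strand), a repressor of proneural genes, stood in radial glia-like cells at 312 and 315 CPM in i4F-Nes and 514 and 278 CPM in CTR. CTR replicate 1 was above the other 3, the range overlapped that of Cytl1-gated cells, and intermediate progenitor-like cells were at 9.21 to 22.8 CPM. Mural-like cells also overlapped it, with a Hes1 mean of 275 ± 75.3 CPM (SD, n = 3 libraries). The 1 library with enough endothelial-like cells was at 249 CPM. Hes5 (ENSMUSG00000048001, chr4:154960923-154962371, plus strand), the Notch target most used as a readout in the cortex, was at 653 and 746 CPM in i4F-Nes and 1103 and 1208 CPM in CTR radial glia-like cells. Intermediate progenitor-like cells kept 148 to 176 CPM of Hes5 and Neurod1-gated cells 2.73 to 11.4 CPM. Hes6 (ENSMUSG00000067071, chr1:91411483-91414038, minus strand), which opposes Hes1 and favours differentiation, was at 309 and 337 CPM in i4F-Nes and 327 and 268 CPM in CTR intermediate progenitor-like cells. Only the Krt8 Crabp2 Ebf-gated cells were higher for Hes6, at 408 and 346 CPM, without overlap. It stayed at 55.3 to 111 CPM in the 3 neuronal gates (Neurod1-gated, upper-layer-like and deep-layer-like). Hey1 (ENSMUSG00000040289, chr3:8663359-8667256, minus strand), a related repressor, was at 46.3 and 30.4 CPM in i4F-Nes and 72.4 and 36.5 CPM in CTR radial glia-like cells. In both groups replicate 1 was above replicate 2 for Hey1 in radial glia-like, intermediate progenitor-like and Neurod1-gated cells.

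**Figure D1:**
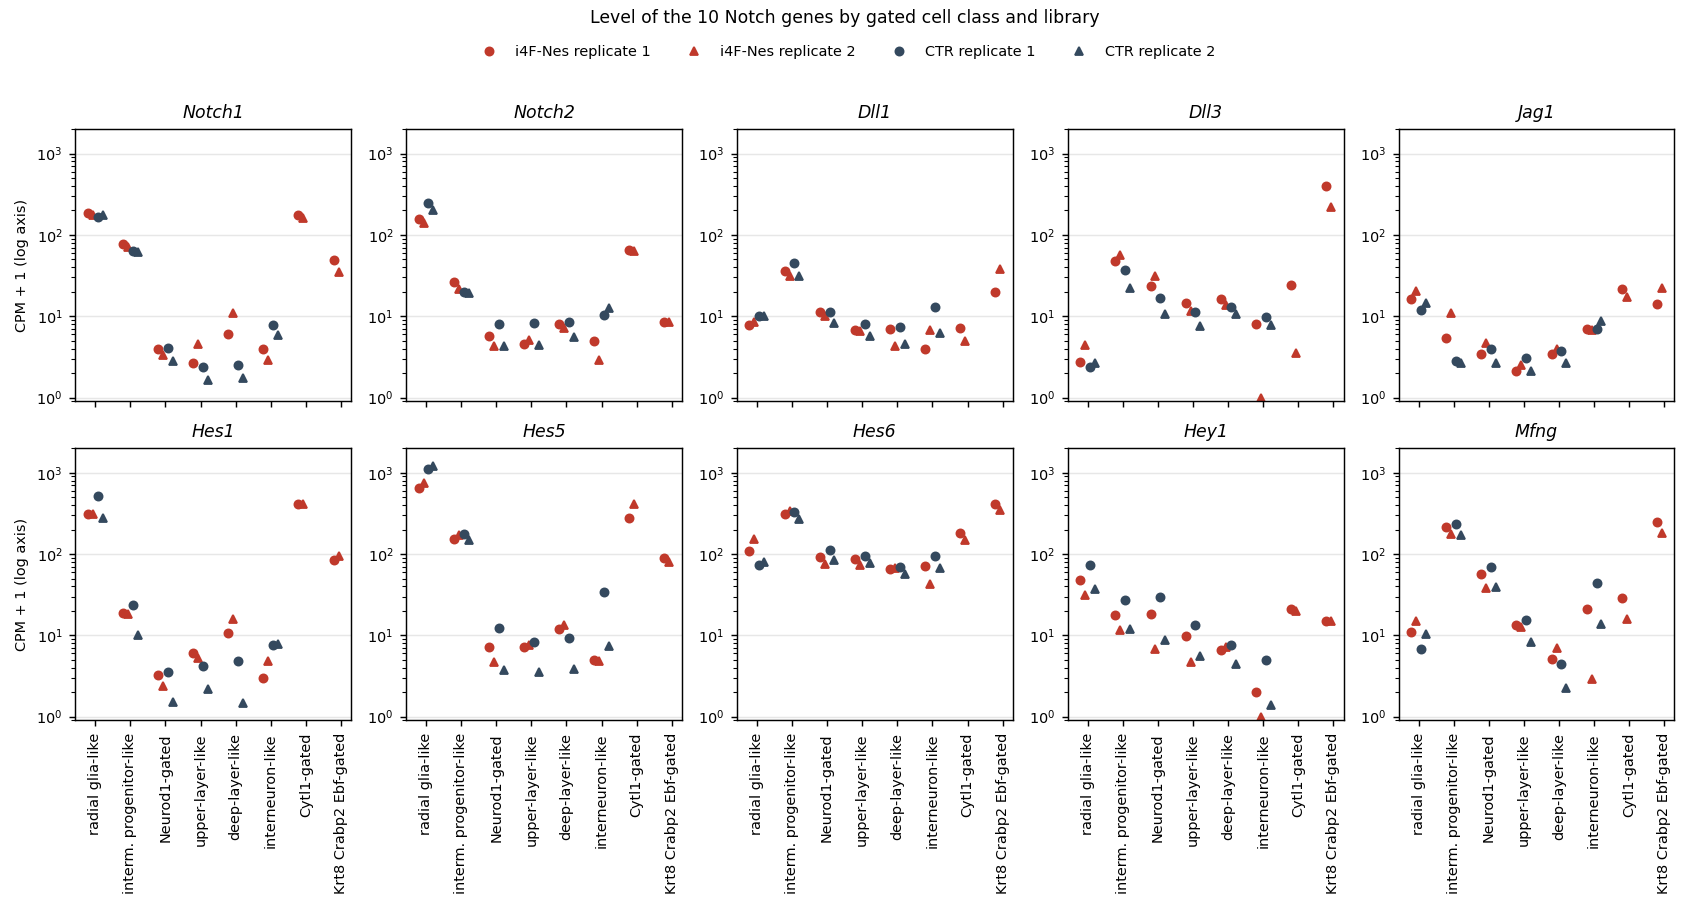
Level of each of the 10 genes (CPM + 1, log axis) in 8 gated classes, 1 point per library (red i4F-Nes, dark CTR, circles replicate 1, triangles replicate 2); Cytl1-gated and Krt8 Crabp2 Ebf-gated cells were present in i4F-Nes only. Notch1, Notch2, Hes1, Hes5 and Hey1 are high at the left, in radial glia-like cells, and Dll1, Dll3, Hes6 and Mfng peak in intermediate progenitor-like or Krt8 Crabp2 Ebf-gated cells.

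The first comparison asked how the pathway differs between radial glia-like and intermediate progenitor-like cells. All 10 genes passed the test, 6 higher in radial glia-like cells (percent called over all genes in that direction: 27.7) and 4 higher in intermediate progenitor-like cells (23.6). In either direction 51.3% of the 18476 genes tested passed, so a call by itself is common between these classes. The test was edgeR's quasi-likelihood F-test on UMIs summed per class and library, with the library as a block and Benjamini-Hochberg adjustment over all genes. Hes1 was higher in radial glia-like cells by 4.36 ± 0.37 on the log2 scale (standard error, adjusted p = 1.44e-10 in edgeR) and Notch2 by 3.04 ± 0.19 (adjusted p = 2.88e-14 in edgeR). Hes5, Jag1, Hey1 and Notch1 were higher by 2.44, 1.81, 1.45 and 1.31. Mfng had a log2 difference of -4.43 ± 0.30 (adjusted p = 4.85e-12 in edgeR) and Dll3 of -4.40 ± 0.39 (adjusted p = 3.64e-10 in edgeR), both higher in intermediate progenitor-like cells, followed by Dll1 at -2.21 and Hes6 at -1.65. The median over the 10 genes was 1.38, against 0.05 over all genes tested. All 10 also passed in the CTR libraries alone.

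The other 50 listed Notch pathway genes were tested in the same fit. In radial glia-like cells 13 were higher and 22 lower, with a median of -0.17. Notch3, a further receptor, was higher by 2.42 ± 0.18 and Lfng by 4.59 ± 0.30. Dtx4, a Deltex ubiquitin ligase, was higher by 2.73 ± 0.42 and the effector Hey2 by 2.39 ± 0.42. Numbl, a Numb-like Notch antagonist, had a difference of -2.13 ± 0.11 and Rbpj, the DNA-binding partner of the receptor domain, of -0.55 ± 0.10. Both fringe genes passed, Lfng higher and Mfng lower in radial glia-like cells.

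Between intermediate progenitor-like and Neurod1-gated cells, 8 of the 10 genes passed, all higher in intermediate progenitor-like cells (22.0% of all genes passed in that direction, 42.3% in either). Hes5 was higher by 4.67 ± 0.44 and Notch1 by 4.60 ± 0.40, and Hes1, Notch2, Mfng, Dll1 and Hes6 by 3.19, 2.10, 1.94, 1.85 and 1.72 on the log2 scale. Dll3 was higher by 0.97 ± 0.29 (adjusted p = 0.00835 in edgeR). Its call was lost with DESeq2 (adjusted p = 0.0562) and with gates set after thinning (0.57, adjusted p = 0.117). Jag1 (0.50 ± 0.34) and Hey1 (0.10 ± 0.21) did not pass. The median of the 10 genes was 1.90 and that of all genes 0.02. Of the other 50 pathway genes 12 were higher and 11 lower, among them Notch3 (3.04 ± 0.29) and Nrarp, a Notch-induced feedback inhibitor (2.89 ± 0.22). Cells at the edge of the Neurod1 gate made up 31.9% to 45.1% of it.

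**Figure D2:**
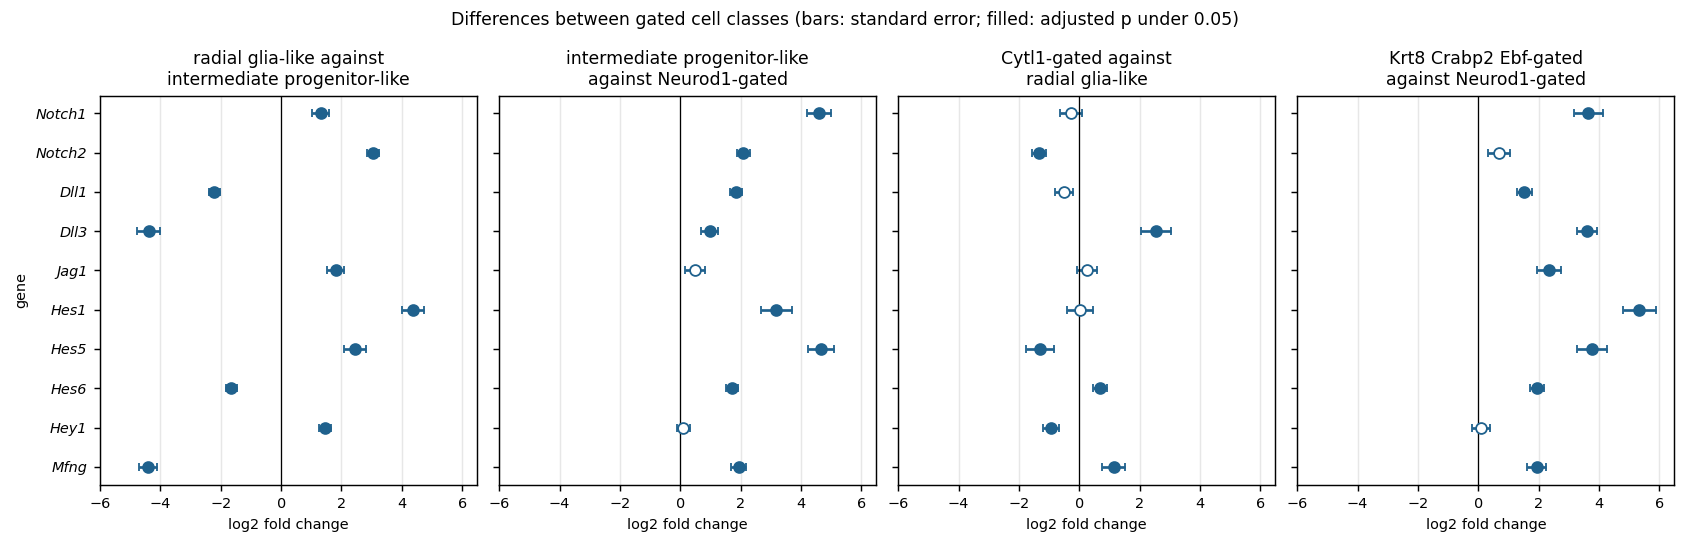
Log2 fold change of each of the 10 genes in 4 comparisons of gated classes (points; bars are standard errors of the edgeR fit; filled points have an adjusted p under 0.05). All 10 points are filled in the left panel, with Hes1 at 4.36 and Mfng at -4.43 as its extremes, and 8 are filled in the right panel.

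Within the radial glia-like gate, cells with at least 3 of 6 mitotic genes (59.5% to 62.2% of the gate) were compared with the rest. Of 9 genes tested, 1 was higher and 2 were lower in mitotic cells (14.3% and 12.2% of all genes passed in these directions, 26.5% in either); Dll3 was too low to test. Dll1 was at 6.27 and 6.51 CPM in i4F-Nes and 7.29 and 7.19 CPM in CTR mitotic cells, and at 8.38, 9.46, 13.5 and 13.7 CPM in the others. All 4 libraries were lower in mitotic cells, by a log2 difference of -0.61 ± 0.18 (adjusted p = 0.0247 in edgeR). Mfng differed by -1.02 ± 0.30 (adjusted p = 0.0356 in edgeR) and Hes1 by 0.18 ± 0.05 (adjusted p = 0.0214 in edgeR). In i4F-Nes replicate 1 Mfng was not lower, at 10.2 CPM in mitotic cells and 10.0 CPM in the others. Hes5 was lower in mitotic cells of all 4 libraries without passing (-0.62 ± 0.17, adjusted p = 0.0648 in edgeR). These calls were not stable: the number passing ran from 0 without CTR replicate 1 to 5 without i4F-Nes replicate 1, was 1 without i4F-Nes replicate 2 and 1 without CTR replicate 2. The 1 was Dll1 in the former and Hes5 in the latter. DESeq2 called 2, Hes5 and Mfng, and 1712 of 12335 over all genes. Without the cells carrying induced genes 5 passed, Hes5 (-0.55) and Hes6 (-0.53) among them, and 3999 of 11761 over all genes.

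The main question of the design was how induction of the factors changed expression. In radial glia-like cells none of the 10 genes passed the edgeR test between i4F-Nes and CTR, where 5.99% of the 14196 genes tested did. At an unadjusted p under 0.05 there were 3 of the 10 genes and 2325 of all genes. Hes5, given above for each library, was lower in both i4F-Nes libraries than in both CTR libraries, by a log2 difference of -0.73 ± 0.19 (adjusted p = 0.0698 in edgeR). Notch2 likewise did not overlap between groups and differed by -0.61 ± 0.15 (adjusted p = 0.0603 in edgeR). Hes6, at 109 and 154 CPM in i4F-Nes, was higher than in CTR, 71.7 and 79.6 CPM, with no overlap and a difference of 0.80 ± 0.21 (adjusted p = 0.073 in edgeR). DESeq2 called these 3 genes and no other of the 10, with 6.21% of all genes called. The groups did not overlap for 7 of the 10 genes, where 45.0% of all genes did not overlap. Notch1 differed by 0.09 ± 0.14. Leaving out i4F-Nes replicate 1 gave 1 call, Hes6, and leaving out CTR replicate 2 gave 1 call, Hey1. Of the other 50 pathway genes 2 passed, the coactivator Maml3 (0.66 ± 0.13) and Dlk1, a non-canonical ligand, at 56.0 and 56.3 CPM in i4F-Nes and 0.350 and 0 CPM in CTR. Neurog2, a proneural factor that Hes repressors restrain, was at 60.3 and 39.1 CPM in i4F-Nes and 146 and 139 CPM in CTR (-1.53 ± 0.19, adjusted p = 0.00382 in edgeR). In cells free of induced genes its difference was -0.94 ± 0.18 and did not pass.

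Without the cells carrying induced genes these differences shrank or turned. Hes5 was then at 928 and 1050 CPM in i4F-Nes and 1120 and 1195 CPM in CTR, a difference of -0.25 ± 0.18. Notch2 was at 212 and 216 CPM in i4F-Nes and 243 and 205 CPM in CTR, overlapping, with a difference of -0.09 ± 0.16. Hes6 turned to lower, at 57.1 and 47.0 CPM in i4F-Nes against 72.7 and 79.2 CPM in CTR (-0.57 ± 0.15, adjusted p = 0.974 in edgeR). Jag1, Dll3 and Mfng, which had not passed, went from 0.51, 0.75 and 0.69 to -0.54, -0.60 and -0.82 and did not pass either. The cells left out had 283 and 452 CPM of Hes5, 80.3 and 63.3 CPM of Notch2 and 179 and 258 CPM of Hes6 in the i4F-Nes libraries, while Notch1 in them (178 and 172 CPM) was close to the rest of the gate (193 and 175 CPM). No gene of the 13157 tested passed in the remaining cells, with 579 at an unadjusted p under 0.05, 4 of them among the 10. In those cells 9 of the 10 genes had a difference below 0, with a median of -0.56 against -0.01 over all genes, and 8 of 10 did not overlap between groups against 32.9% of all genes. Hes1 was at 276 and 226 CPM in i4F-Nes and 516 and 277 CPM in CTR (-0.69 ± 0.27). It passed when CTR replicate 2 was also left out (-1.04, adjusted p = 0.00906 in edgeR) and was at -0.20 when CTR replicate 1 was left out instead.

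**Figure D3:**
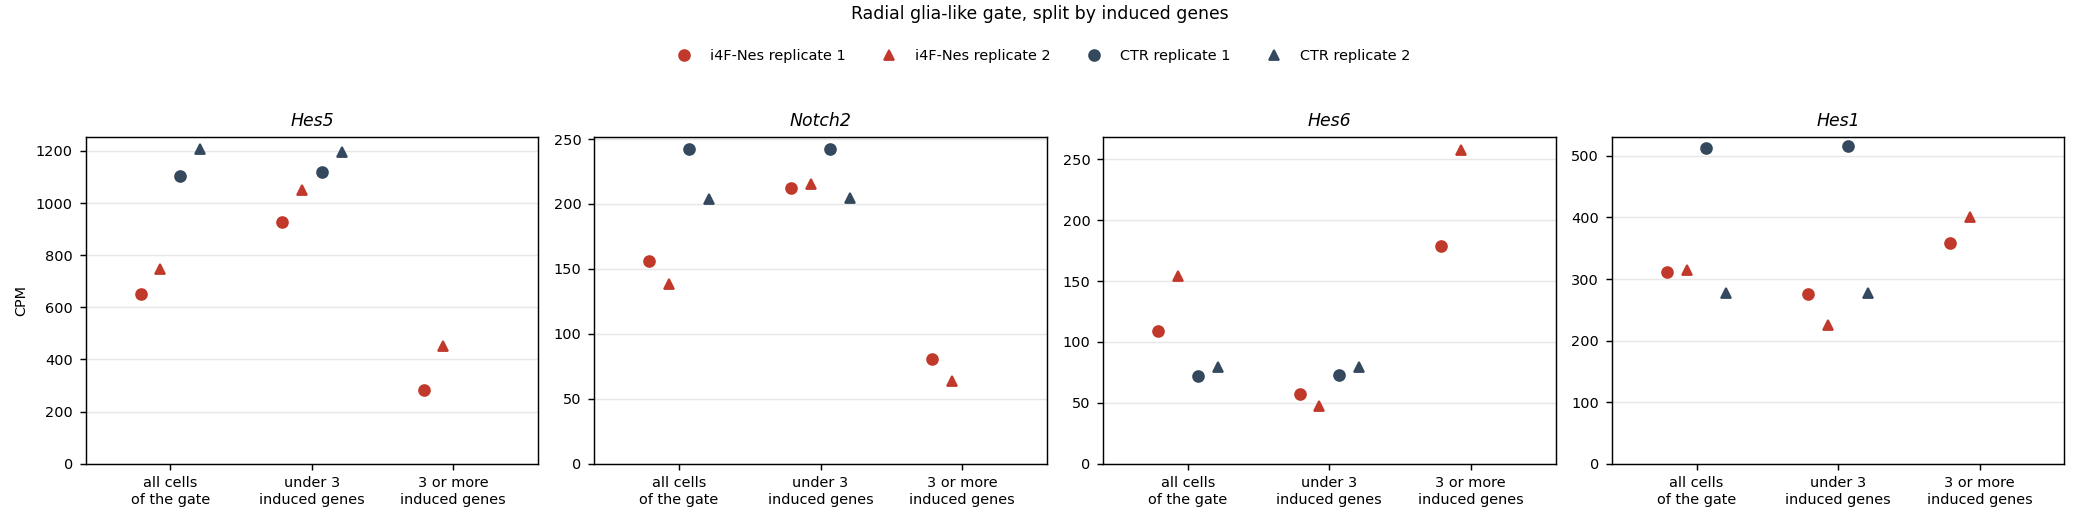
CPM of Hes5, Notch2, Hes6 and Hes1 in the radial glia-like gate per library (red i4F-Nes, dark CTR, circles replicate 1, triangles replicate 2), over all cells, cells with under 3 induced genes and cells with 3 or more; CTR has too few cells for the last. For Hes5 the 2 i4F-Nes points rise from 653 and 746 CPM to 928 and 1050 CPM when cells with induced genes are left out, and those cells are at 283 and 452 CPM.

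In intermediate progenitor-like cells none of the 10 genes passed in edgeR, where 0.0789% of 13942 genes did; 2 of the 10 and 619 of all genes had an unadjusted p under 0.05. Jag1 was at 4.38 and 10.0 CPM in i4F-Nes and 1.82 and 1.63 CPM in CTR, without overlap (1.99 ± 0.45, adjusted p = 0.28 in edgeR). Mural-like cells had the highest Jag1 mean among classes with at least 2 libraries. The summed mural markers were in this gate at 10.2 and 25.6 CPM in i4F-Nes and 2.602 and 3.16 CPM in CTR. Of the 7 markers, 1 and 3 were at 0 in i4F-Nes and 1 and 2 in CTR, so the sums did not rise across the whole list. Ndufa4l2, on that list, was also among the leading genes of Krt8 Crabp2 Ebf-gated cells. The part of mural cells in the Jag1 difference was not tested. Summed markers of microglia were at 1.33 to 2.78 CPM, of endothelial cells at 3.49 to 4.44 CPM, of interneurons at 6.12 to 10.1 CPM and of meningeal fibroblasts at 0.0982 to 0.596 CPM over the 4 libraries. DESeq2 called Jag1 alone of the 10 (0.638% of all genes called). In cells free of induced genes it was at 1.84 and 4.60 CPM in i4F-Nes and 1.79 and 1.65 CPM in CTR (0.79 ± 0.50). Dll3, also without overlap, differed by 0.80 ± 0.24 (adjusted p = 0.563 in edgeR) and by 0.30 ± 0.24 without those cells. Dll3 in the i4F-Nes cells left out was at 105 and 140 CPM. Jag1 passed without i4F-Nes replicate 1 (2.53) and Dll3 without CTR replicate 1 (1.22). The groups did not overlap for 4 of the 10 genes, against 28.1% of all genes, and for 2 of 10 without the cells carrying induced genes, against 25.8% (0.00735% of genes then passed, none of the 10).

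The response differed between the 2 progenitor classes for 2 genes. The i4F-Nes difference of Notch2 was higher in intermediate progenitor-like than in radial glia-like cells by 0.87 ± 0.12 (adjusted p = 0.0123 in edgeR) and that of Hes5 by 0.68 ± 0.12 (adjusted p = 0.0288 in edgeR). Both passed the interaction test in the direction in which 0.726% of 14735 genes did (2.84% in either). In cells free of induced genes neither passed (0.29 and 0.22), and without i4F-Nes replicate 1 or 2 neither passed. Without CTR replicate 1 the Notch2 call was lost (0.79, adjusted p = 0.123 in edgeR) and the Hes5 call was not.

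None of the 10 genes passed in Neurod1-gated, upper-layer-like or deep-layer-like cells, where 0.0% of all genes did by edgeR. With p unadjusted, 1, 0 and 2 of the 10 genes and 413, 305 and 640 of all genes were under 0.05, and DESeq2 called 0, 0 and 1 of the 10 (1.13% of all genes in deep-layer-like cells). The 1 was Notch1 in deep-layer-like cells, at 5.02 and 9.98 CPM in i4F-Nes and 1.53 and 0.749 CPM in CTR (2.66 ± 0.51, adjusted p = 0.327 in edgeR). Cells with induced genes made up 3.96% and 6.69% of the deep-layer-like gate in i4F-Nes and 0 in CTR, and without them the difference was 0.98 ± 0.43. In deep-layer-like cells Notch1 passed without i4F-Nes replicate 1 and Hes1 without CTR replicate 1. In interneuron-like cells 3 of the 10 genes were high enough to test and none passed (0.0309% of 9722 genes did), with 1 of the 3 and 621 of all genes at an unadjusted p under 0.05 and 0 of the 3 called by DESeq2. Mfng passed there without i4F-Nes replicate 1, and Mfng and Hes5 without CTR replicate 2.

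Over all kept cells none of the 10 genes passed in edgeR, where 2.59% of 18616 genes did; in such sums a change in the share of a cell type and a change of RNA per cell cannot be told apart. Dll3 was at 37.7 and 24.8 CPM in i4F-Nes and 15.6 and 9.41 CPM in CTR (1.23 ± 0.31, adjusted p = 0.155 in edgeR). Jag1 differed by 1.04 ± 0.27 and Notch1 by 0.85 ± 0.25. The groups did not overlap for 4 of the 10 genes (Dll3, Jag1, Notch1 and Hes1), against 39.0% of all genes. DESeq2 called Dll3, Jag1 and Notch1 (6.56% of all genes called). Without the cells carrying induced genes the differences were 0.15 for Dll3, -0.16 for Jag1 and 0.14 for Notch1. Hes1 went from 0.83 ± 0.52 to -0.58 ± 0.54, and when CTR replicate 2 was also left out it was at -1.18 and passed (adjusted p = 0.00032 in edgeR), with Mfng (-0.86). Dll3 passed without i4F-Nes replicate 2 (1.51), and Notch1, Dll3 and Hes1 passed without CTR replicate 1. Of the other 50 pathway genes 2 passed over all cells: Dlk1 (3.53 ± 0.17) and the coactivator Maml2 (1.10 ± 0.10).

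Cytl1-gated cells, compared with radial glia-like cells, had 3 of the 10 genes higher and 3 lower (11.8% and 11.2% of all genes passed in these directions, 23.0% in either). Notch2 was at 64.4 and 62.9 CPM and lower by a log2 difference of -1.34 ± 0.24 (adjusted p = 9.02e-05 in edgeR). Hes5 was at 279 and 409 CPM (-1.32 ± 0.46, adjusted p = 0.041 in edgeR), and Hey1 differed by -0.94. Hes1 was at 407 and 412 CPM and differed by 0.02 ± 0.42. Hes6 (0.69) and Mfng (1.14) were higher in the fit, which also used the radial glia-like cells of CTR. Within i4F-Nes replicate 1 Hes6 rose from 109 CPM in the radial glia-like gate to 180 CPM in the Cytl1 gate. Within i4F-Nes replicate 2 Hes6 was not higher, with 154 CPM in the former gate and 149 CPM in the latter. Mfng rose in each, from 10.1 to 28.0 CPM in replicate 1 and from 13.99 to 15.1 CPM in replicate 2. Dll3 was higher by 2.54 ± 0.50, which rested on 1 library: it was at 23.5 CPM in replicate 1 and 2.57 CPM in replicate 2, and without replicate 1 the difference was -0.11. DESeq2 called Hes6, Notch2 and Dll3, and without i4F-Nes replicate 1 only Notch2 passed. Over all genes DESeq2 called 4479 of 18476. Against radial glia-like cells free of induced genes 8 passed, adding Jag1 (1.07) and Hes1 (0.58). Calls over all genes rose there too, from 4256 of 18476 to 7662 of 17856. Of the other 50 pathway genes 5 were higher and 6 lower, and Notch3 differed by -3.94 ± 0.31, the largest decrease among those that passed.

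Krt8 Crabp2 Ebf-gated cells had 8 of the 10 genes higher than Neurod1-gated cells (24.4% of all genes passed in that direction, 44.3% in either). Dll3 was at 397 and 217 CPM, against 22.2 and 30.4 CPM in the Neurod1-gated cells of i4F-Nes and 15.9 and 9.76 CPM in those of CTR. The difference was 3.60 ± 0.34 on the log2 scale (adjusted p = 2.9e-09 in edgeR). Both libraries were above every other class, the next being intermediate progenitor-like cells with a mean of 39.9 CPM. Hes1 was at 84.3 and 93.1 CPM against 0.520 to 2.53 CPM (5.34 ± 0.54), and Hes5 at 89.3 and 79.9 CPM (3.77 ± 0.51). Notch1 was higher by 3.65 ± 0.49, Jag1 by 2.34, Hes6 and Mfng by 1.94 each and Dll1 by 1.53. With gates set after thinning the Notch1 difference was 1.03 and did not pass. Notch2 (0.69 ± 0.36) and Hey1 (0.08 ± 0.30) did not pass. The median of the 10 genes was 2.14 and that of all genes 0.02. Of the other 50 pathway genes 20 were higher and 11 lower. The ligand Dll4 was at 25.5 and 9.31 CPM, with 0, 0, 1 and 1 UMIs in the Neurod1-gated cells of the 4 libraries. No test set Krt8 Crabp2 Ebf-gated cells beside intermediate progenitor-like cells. Means of the latter were higher for Notch1 (66.9 against 41.3 CPM), Notch2 (20.8 against 7.55 CPM) and Hes5 (162 against 84.6 CPM). Those of Dll1 and Hey1 were also higher, with overlap. Means of Hes1, Jag1, Dll3 and Hes6 were lower, and that of Mfng was lower with overlap.

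Detection per cell was compared after every cell was thinned to 4000 UMIs, with shallower cells left out. A Hes5 UMI was found in 67.2% and 67.3% of radial glia-like cells of i4F-Nes and 80.4% and 81.3% of CTR (82.4%, 81.5%, 91.5% and 90.3% unthinned). The i4F-Nes libraries were both lower, and with 2 libraries against 2 the exact two-sided permutation test gave p = 0.333, the smallest it can give. Without the cells carrying induced genes the shares were 76.9% and 80.4% in i4F-Nes and 80.3% and 80.9% in CTR, and the groups overlapped (exact two-sided permutation p = 0.667). In upper-layer-like cells, which should lack Hes5, the share was 0.858% to 2.59%. The share of intermediate progenitor-like cells with a Hes5 UMI was 16.4% to 20.7%, above that level in each library.

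Among intermediate progenitor-like cells, those with a Dll1 UMI were set beside those without, as a description per library. A Hes5 UMI was found in 36.9% (95% interval 28.6 to 45.8, exact binomial, 130 cells) of cells with Dll1 and 15.7% (13.5 to 18.1, 1007 cells) of cells without in i4F-Nes replicate 1. The values were 41.5% and 17.0% in i4F-Nes replicate 2, 45.5% and 16.6% in CTR replicate 1, and 38.8% and 13.8% in CTR replicate 2. The share was thus higher beside Dll1 in all 4 libraries, with intervals that did not overlap. Notch1 was found in 31.5%, 35.8%, 25.1% and 35.3% of cells with Dll1 and 19.7%, 16.6%, 18.8% and 17.5% of cells without, in the same order of libraries. Neurog2, a marker of this gate, was found in 86.2%, 86.8%, 92.2% and 89.4% of cells with Dll1 and 66.8%, 61.9%, 71.4% and 70.1% of cells without. Hes6 and Hes1 were also found more often beside Dll1 in all 4 libraries, so the higher share was not particular to Hes5. For both genes the intervals overlapped in replicate 2 of each group, and for Hes1 also in i4F-Nes replicate 1. In i4F-Nes replicate 2 the shares with and without Dll1 were 62.3% and 57.5% for Hes6 and 5.66% and 4.79% for Hes1. Mfng was found less often beside Dll1, except in CTR replicate 2. Dll3 differed little, at 16.2%, 15.1%, 14.4% and 9.41% with Dll1 against 16.2%, 13.8%, 12.9% and 7.51% without. In radial glia-like cells only 12 to 20 cells per library had a Dll1 UMI after thinning.

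**Figure D4:**
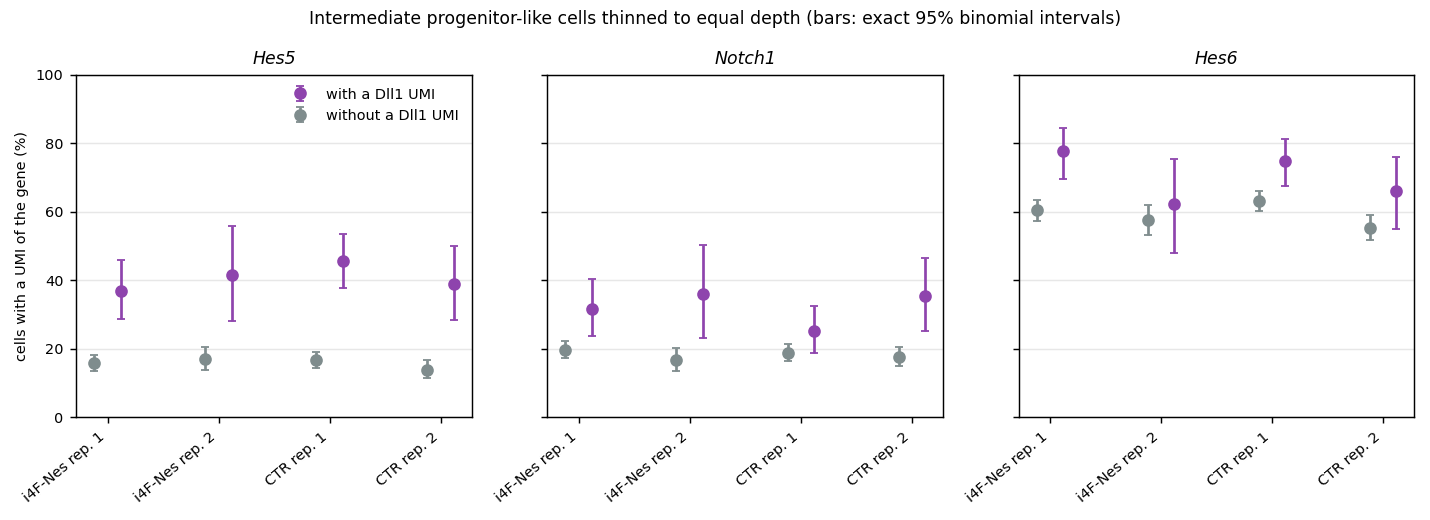
Share of intermediate progenitor-like cells with a UMI of Hes5, Notch1 or Hes6 (%, thinned cells) in cells with and without a Dll1 UMI, per library; bars are exact 95% binomial intervals and cover counting error only. For Hes5 the 4 values beside Dll1 lie between 36.9% and 45.5% and the others between 13.8% and 17.0%.

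The genes whose levels ran most like each of the 10 were sought over 32 points (8 classes in 4 libraries) among 9783 genes, as a description; the points share libraries and depth. For Hes5 these were Lrp4, Gpx8 and Hirip3 (Pearson r = 0.947, 0.939 and 0.931). For Hes1 they were Plce1, Mfge8 and Aldoc (0.943, 0.939 and 0.938), of which Mfge8 and Aldoc are markers of the radial glia-like gate. Notch1 ran most like Gas1 (0.957), Notch2 like Pcgf5 (0.948) and Dll1 like Golga5 (0.911). The closest gene to Jag1 was Mcu (0.889), to Hey1 Insig1 (0.893), to Hes6 Pnrc1 (0.857), to Dll3 Vat1 (0.799) and to Mfng Dipk2a (0.787).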

How the data were processed

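The deposited matrices hold raw UMI counts of each gene in each barcode, made by the authors with Cell Ranger 7.0.1, per the file headers, on mm10, per the submitters' processing notes. Whether the authors counted introns or removed doublets or free RNA is not given in the sources used here. Groups were taken from the sample titles. Barcodes with at least 1000 UMIs, at least 500 genes and at most 10% mitochondrial UMIs were kept, and the highest-scoring cells by a Scrublet doublet score (scanpy 1.11.5), at a rate of 0.8% per 1000 barcodes, were removed (1655 cells). Each cell took the first of 14 marker gates it met. UMIs were summed per class and library and tested with edgeR 4.0.16 (quasi-likelihood F-test, TMM, filterByExpr, Benjamini-Hochberg over all genes, threshold 0.05) in R 4.3.3. Comparisons of i4F-Nes with CTR were run only where each library held at least 20 cells. Class comparisons had the library as a block and used every sum of at least 20 cells. Cytl1-gated and Krt8 Crabp2 Ebf-gated cells entered them from the i4F-Nes libraries only. CPM are the UMIs of a gene per 1000000 UMIs of the class and library. The code was tested on simulated data. The labels do not say that libraries came from separate embryos, so p-values between i4F-Nes and CTR measure only the spread between these 4 libraries. Class comparisons, the mitotic split and the interaction had the library as a block. Their p-values measure the spread left between sums once library differences are removed. In the class comparisons all classes shared 1 estimate of that spread. Shares of cells used cells thinned to 4000 UMIs, with 2804 shallower cells left out, and their exact binomial intervals cover counting error only.

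Alternatives were DESeq2 1.42.0, no filter on low counts, each library left out and the replicate number as a block. Others were doublets kept, stricter gates, gates after thinning and CTR libraries alone. Over all kept cells, the Cytl1-gated and Krt8 Crabp2 Ebf-gated cells were also left out. Leaving out cells with at least 3 of the 14 induced genes was added after seeing the data. The 10 genes, the gates and the list of 50 other pathway genes were chosen with earlier results of these data known. All 10 genes are named; other pathway genes are given as counts, with named examples that passed; the 3 genes most like each were ranked by Pearson r of log2(CPM + 1) over class sums, among genes of at least 10 CPM. Gene positions are from GENCODE M21 on GRCm38 and promoters from RefSeq on GRCm38.p6.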

Additional observations from a re-analysis of the deposited data

Results flagged for a closer look

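The effect of i4F-Nes differed between intermediate progenitor-like and radial glia-like cells for Notch2, by 0.87 on the log2 scale, and for Hes5, by 0.68, by the interaction test of edgeR. In radial glia-like cells both genes were lower in both i4F-Nes libraries than in both CTR libraries, and in intermediate progenitor-like cells Hes5 overlapped between the groups, while Notch2 was at 25.5 and 20.4 CPM in i4F-Nes and 18.8 and 18.5 CPM in CTR, higher in i4F-Nes without overlap. Cells carrying at least 3 induced genes made up 25.0% and 35.1% of the cells of the radial glia-like gate in i4F-Nes, and more of its UMIs. Without those cells the differences were 0.29 for Notch2 and 0.22 for Hes5 and did not pass. The groups held 2 libraries each, too few for a check of single libraries standing apart.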

How the results depend on the processing

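All 10 genes passed between the 2 progenitor classes in every alternative run (10 to 10 when a library was left out), and 8 to 9 passed in both comparisons with Neurod1-gated cells when a library was left out. Between i4F-Nes and CTR the counts of the 10 genes, 0 in each class, were with no filter on low counts 4 in radial glia-like, 2 in intermediate progenitor-like, 1 in Neurod1-gated and 1 in deep-layer-like cells. With DESeq2 there were 3 over all kept cells, 3 in radial glia-like, 1 in intermediate progenitor-like and 1 in deep-layer-like cells. Stricter gates gave 1 in radial glia-like cells. When a library was left out the counts were 0 to 3 over all kept cells, 0 to 1 in radial glia-like, 0 to 1 in intermediate progenitor-like, 0 to 1 in deep-layer-like and 0 to 2 in interneuron-like cells. The interaction gave 0 to 3 when a library was left out and 0 without cells carrying induced genes. Cytl1-gated against radial glia-like cells gave 3 with DESeq2 and 1 to 5 when a library was left out. The mitotic split gave 5 with no filter, 5 with gates after thinning, 5 without cells carrying induced genes and 0 to 5 when a library was left out. The cause was not tested.

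The replicate number as a block gave 1 gene over all kept cells, 5 in radial glia-like and 2 in intermediate progenitor-like cells; the labels give no pairing, and the 2 same-numbered pairs had correlations of 0.263 to 0.525 by class. Over all genes the block called 2207 in radial glia-like cells against 851, 1751 over all kept cells against 482, and 707 in intermediate progenitor-like cells against 11. With all libraries kept, other counts that moved by over 1.5 times were, over all kept cells, 893 with no filter and 1221 with DESeq2; in radial glia-like cells, 1653 with no filter and 158 with gates after thinning; and in intermediate progenitor-like cells, 255 with no filter, 89 with DESeq2 and 42 with doublets kept. In Neurod1-gated, upper-layer-like and deep-layer-like cells, 0 by edgeR, DESeq2 called 73, 23 and 165, no filter 224, 22 and 116, and the block 271, 261 and 630; stricter gates called 13 in deep-layer-like cells. In interneuron-like cells, 3 by edgeR, these were 12, 84 and 37, with 15 under stricter gates. The mitotic split called 1712 genes with DESeq2 against 3272. Without cells carrying induced genes the counts were 0 over all kept cells, 0 in radial glia-like and 1 in intermediate progenitor-like cells, 5 for the interaction against 419, and 7662 in Cytl1-gated cells against 4256. Leaving out any 1 library raised the counts to 36 to 208 in intermediate progenitor-like, 3 to 103 in Neurod1-gated, 5 to 14 in upper-layer-like, 8 to 174 in deep-layer-like and 33 to 185 in interneuron-like cells, each highest without i4F-Nes replicate 1, where Cytl1-gated cells gave 1405 and Krt8 Crabp2 Ebf-gated cells 4092 against 8189. The interaction gave 75, 92 and 103 without i4F-Nes replicate 1, i4F-Nes replicate 2 and CTR replicate 1, and 875 passed over all kept cells without the last.

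Directions also turned. Between i4F-Nes and CTR, Jag1 over all kept cells was -0.16 without cells carrying induced genes, and Hes6 in radial glia-like cells was -0.57 without them and -0.066 with gates after thinning. In all, without those cells the sign turned, with no gene passing before or after, for 4 of 10 genes in radial glia-like cells, 5 over all kept cells (Hes1, Hes6, Hes5 and Notch2 also), 3 in intermediate progenitor-like, 2 in Neurod1-gated, 1 in upper-layer-like and 5 in deep-layer-like cells (Mfng to -0.28) and 5 in the interaction. Between intermediate progenitor-like and Neurod1-gated cells, Jag1 was -0.055 with gates after thinning, -0.10 without cells carrying induced genes and -0.58 in CTR alone, and Hey1 was -0.048 with stricter gates, -0.26 with gates after thinning, -0.054 in CTR alone and -0.044 (without i4F-Nes replicate 2) to 0.31 when a library was left out. In Cytl1-gated cells, the range when a library was left out was -0.11 to 3.64 for Dll3, -0.21 to 0.59 for Jag1 and -0.23 to 0.19 for Hes1, each lowest without i4F-Nes replicate 1; Hes1 was also -0.045 without i4F-Nes replicate 2 and -0.073 with stricter gates. In Krt8 Crabp2 Ebf-gated cells Notch2 was -0.14 with stricter gates and -0.48 with gates after thinning, and Hey1 was -0.37 (without i4F-Nes replicate 2) to 0.58 when a library was left out, -0.15 with stricter gates and -0.26 with gates after thinning. In the mitotic split Notch2 was -0.038 (without CTR replicate 2) to 0.045 when a library was left out and -0.00064 with doublets kept, and Jag1 was 0.0054 without cells carrying induced genes. Of 619 values of single genes under alternatives, 513 kept their direction and side of the threshold. A library left alone in its group is assumed to vary like the others. Depth limits genes of few UMIs, such as Dll3 in radial glia-like cells.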
